A study of Homo sapiens with 6 samples.

Results

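The complement and coagulation genes are a list of 45 genes for the proteases of both cascades, their cofactors, inhibitors and cell-surface receptors. The list was chosen by gene name with earlier results of the same comparison, ZNF706 knockdown against vector control, already known. Serpins and PROS1 were left out of it. Of the 45 genes, 42 had a row in the deposited table of 33007 genes, and C6, C9 and KLKB1 were not analysed here. Enough counts for a test were present for 37 genes, and F7, F11, PLG, KNG1 and CPB2 were too low to be tested. The table's KEGG column named the complement and coagulation pathway for 41 of the 42 genes, the exception being F2RL1.

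The cells were LM3, an established human HCC cell line grown in DMEM with fetal bovine serum. RNA-seq compared 3 vector control samples with 3 samples of LM3 cells carrying a stable knockdown of ZNF706, a C2H2-type zinc finger gene, made with a short hairpin RNA in the lentiviral pLKO.1 vector and puromycin selection. All 6 samples were labelled with a WT genotype, so the groups differed in the treatment label alone. The study asked which genes depend on ZNF706 in these cells. Which hairpin was sequenced, and whether the lines were pools or clones, is not given in the sources used here. Nothing in the labels says that the 3 samples of a group came from separate cultures, and p-values then measure only the spread between these samples, which may be technical.

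Complement is a cascade of plasma proteases that converge on C3, the central protein whose fragments tag surfaces and start the lytic pore. Coagulation is a parallel cascade in which thrombin turns fibrinogen into fibrin, and plasmin later dissolves the clot. Hepatocytes make most of these proteins and secrete them into blood, and many are acute phase genes that answer interleukin-6 through STAT3 and C/EBP factors, while HNF1 and HNF4 factors drive their liver expression.

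The total number of counts was 62684076, 64713764 and 63054445 in control samples 1 to 3 and 68548419, 65861994 and 69057423 in knockdown samples 1 to 3. Every knockdown sample was therefore deeper than every control sample, and values below are given as CPM, which are counts scaled to library size with TMM factors. Between 2 genes, levels are compared only as FPKM, the authors' values per gene length and library size. Differences are log2 fold changes, knockdown against control, from edgeR's quasi-likelihood test with its standard error (SE) and a Benjamini-Hochberg adjusted p over all 18390 tested genes. For 1 gene in groups of 3, the smallest two-sided p that exact permutation allows is 0.1.

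ZNF706 itself had CPM values of 51.9, 55.1 and 54.7 in the control samples against 33.5, 30.8 and 32.8 in the knockdown samples. The groups were apart, with means of 53.9 ± 1.76 and 32.4 ± 1.39 CPM (SD, n = 3 each). Its transcript fell by 39.9% (log2 fold change -0.73, SE 0.050, adjusted p = 3.7e-05 by edgeR's quasi-likelihood test), so the knockdown was partial at the RNA level.

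Of the 37 tested complement and coagulation genes, 12 fell and 2 rose at an adjusted p below 0.05, and 23 did not pass. Among all tested genes 12.4% were lower and 10.4% higher by the same rule, and because the list was made with this comparison known, nothing about the list is read from the counts. The genes that fell were C4A, A2M, C4B, C2, C3, F2RL1, CD59, C1R, TFPI, C1S, CD55 and CD46, and those that rose were F12 and PLAT. The median log2 fold change of the 37 genes was -0.27, beside 0.01 for all tested genes. The 3 knockdown samples were all below the 3 control samples for 15 of the 37 genes and all above for 4, and 18 overlapped, where 19.7% of all tested genes lay apart in the lower direction and 19.7% in the higher. With the thresholds of the study, which it set on DESeq2 results, applied here to the edgeR fit (an unadjusted p below 0.05 with a log2 fold change of 0.3 or more in either direction), 9 of the genes were lower and 3 higher, beside 5.88% and 9.61% of all tested genes. All 14 genes that passed the adjusted threshold were among the 29 whose mean count reached 50. The other 8, C8G, CFI, MASP1, F2, F5, F10, FGG and PROC, had fewer, and 7 of them had a log2 fold change below 0, as had 48.7% of all tested genes. The smallest change that passed was that of CD46, at -0.17.

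**Figure D1:**
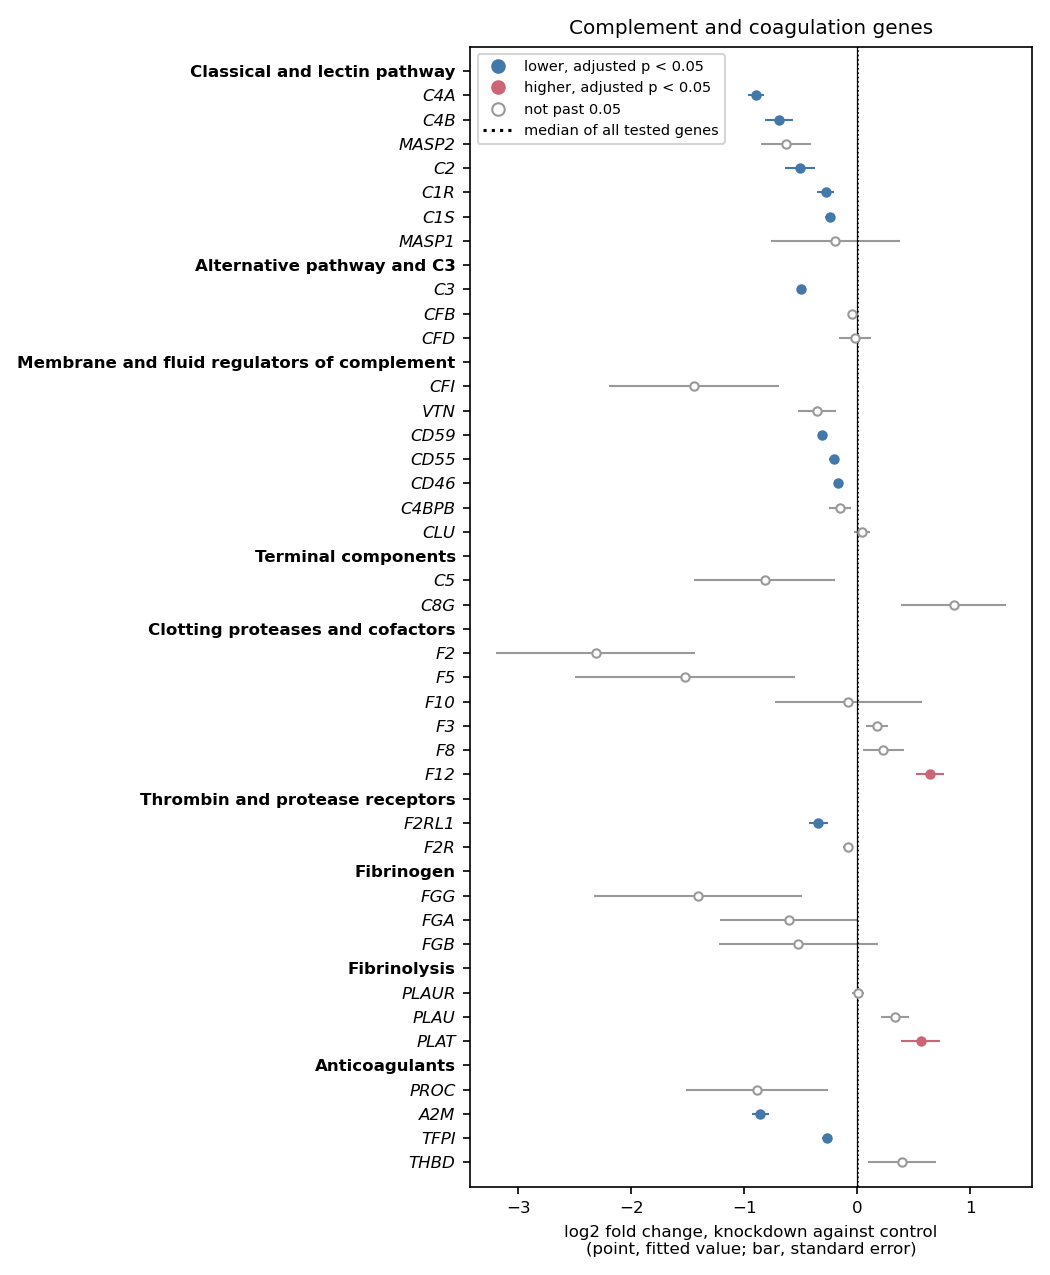
Log2 fold change (x axis, knockdown against control) of the 37 tested complement and coagulation genes, grouped by role, with points for the fitted value and bars for its standard error. Filled blue points are the 12 genes lower and filled red points the 2 genes higher at an adjusted p below 0.05, and the open grey points with long bars are mostly genes with a mean count below 50.

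The genes were expressed over a wide range. By mean FPKM over the 6 samples, 9 of the 42 genes were at 10 or more, 12 between 1 and 10, 11 between 0.1 and 1, and 10 below 0.1. C3, CD55, CD59, CD46 and CLU were the 5 most abundant and together held 69.5% of the summed FPKM of the list. The summed FPKM of the 42 genes was 334.9, 337.0 and 335.5 in the control samples against 288.8, 292.3 and 296.1 in the knockdown samples. Without C3 it was 259.3, 259.9 and 260.2 against 233.1, 236.3 and 241.0, so the sum over the remaining 41 genes was also lower. FPKM values do not carry the TMM factors, so knockdown samples stand somewhat higher against control samples in FPKM sums than in CPM. CFB, for example, had group means of 10.28 and 10.30 FPKM beside 56.5 and 54.7 CPM. By role, the sum for clotting proteases and cofactors was higher, with 6.22, 5.76 and 5.14 against 7.28, 7.59 and 6.83. That for fibrinolysis was higher too, with 15.31, 15.7 and 14.72 against 17.65, 16.29 and 18.12. Within it, PLAU, which did not pass, had group means of 4.91 and 6.40 FPKM. PLAUR, which did not pass either, had 9.91 and 10.32 FPKM, and PLAT had 0.41 and 0.63 FPKM. For each of the other roles the knockdown samples were lower or overlapped the control samples. Membrane proteins that shield a cell from complement thus stood beside C3 at the top of the list in LM3 cells, while most plasma clotting factors were near the bottom.

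**Figure D2:**
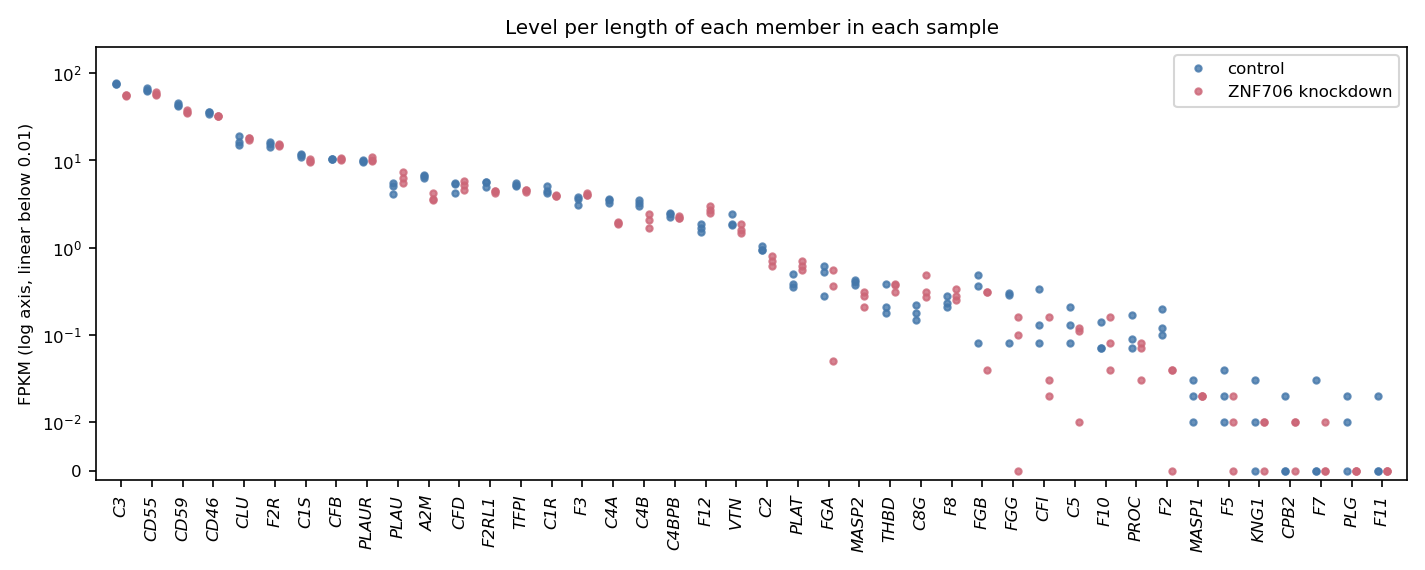
FPKM of each of the 42 genes in each sample (y axis, logarithmic with a linear part below 0.01), ordered by mean level, with control samples in blue and ZNF706 knockdown samples in red. The highest gene is C3 with a mean of 65.8, and the 5 untested genes F7, F11, PLG, KNG1 and CPB2 are at the right end.

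C3 (ENSG00000125730, GRCh38, chr19:6677704-6730562, minus strand) had the highest level of the list and the smallest standard error of its 37 tested genes. Its CPM values were 721, 742 and 731 in the control samples against 518, 520 and 513 in the knockdown samples. The groups were far apart relative to the spread within them, with means of 731 ± 10.4 and 517 ± 3.25 CPM (SD, n = 3 each). C3 fell by 29.3% (log2 fold change -0.50, SE 0.028, adjusted p = 1.4e-05 by edgeR's quasi-likelihood test). The remaining genes of the alternative pathway, which amplifies C3 cleavage at surfaces, did not pass. CFB, the protease subunit of the alternative C3 convertase, had 56.5 ± 0.582 CPM in the control group against 54.7 ± 1.51 CPM in the knockdown group (SD, n = 3), a log2 fold change of -0.05 (SE 0.038) whose sign turned with the scaling of the libraries. CFD, the protease that cleaves factor B, had 7.13 ± 1.08 and 7.04 ± 0.820 CPM (SD, n = 3) and a log2 fold change of -0.02 (SE 0.14), which was also positive when libraries were scaled by size alone.

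All 7 tested genes of the classical and lectin pathways, which lead from antibody or sugar recognition to C4 and C2, had a log2 fold change below 0, and 5 of them passed, beside 48.7% and 12.4% of all tested genes. C4A and C4B encode the 2 forms of C4, which C1s cleaves to build the C3 convertase. They lie side by side on chromosome 6 (GRCh38, chr6:31982057-32002681 for C4A and chr6:32014795-32035418 for C4B, plus strand) and are nearly identical in sequence, so that reads could be split between them in counting. C4A had 29.0, 30.0 and 27.6 CPM in the control samples against 16.0, 14.97 and 15.4 CPM in the knockdown samples. Every knockdown sample was below every control sample, and C4A fell by 46.4% (log2 fold change -0.90, SE 0.070, adjusted p = 6.4e-05 by edgeR's quasi-likelihood test), the lowest log2 fold change of the 14 genes that passed. C4B had 25.1, 29.4 and 27.0 CPM in the control samples against 19.9, 16.7 and 13.7 CPM in the knockdown samples. These groups were apart as well, with more spread among the knockdown samples, and C4B fell by 38.3% (log2 fold change -0.70, SE 0.12, adjusted p = 0.0034 by edgeR's quasi-likelihood test). With the counts of the pair added together, which removes the split, the level was 56.0 ± 2.89 CPM in the control group against 32.3 ± 3.39 CPM in the knockdown group (SD, n = 3), and the log2 fold change was -0.80 (SE 0.074, adjusted p = 0.00013 by edgeR's quasi-likelihood test). C4A made up 53.6%, 50.5% and 50.5% of the pair in the control samples against 44.6%, 47.2% and 52.9% in the knockdown samples, ranges that overlapped.

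C2, the protease partner of C4b in the convertase, had 5.96, 6.78 and 6.06 CPM in the control samples against 4.35, 4.98 and 3.93 CPM in the knockdown samples. The groups were apart, and C2 fell by 29.5% (log2 fold change -0.50, SE 0.13, adjusted p = 0.023 by edgeR's quasi-likelihood test), a call that was lost without control sample 2 or 3 or knockdown sample 1 or 3 (adjusted p up to 0.085 by edgeR's quasi-likelihood test), and also without a filter and with limma on both FPKM scales. C2 and CFB are neighbours on chromosome 6 whose rows overlap on the plus strand, and ZBTB12, on the minus strand over C2, rose with a log2 fold change of 0.42. If counting did not use strand, reads of C2 and ZBTB12 cannot be told apart, and whether it did is not given in the sources used here. The neighbours C2 and CFB are shown because their values diverged. Each window is the 250 bases before a RefSeq start of the gene in GRCh38.p14, on the plus strand. The windows are chr6:31897533-31897782 for C2 and chr6:31945845-31946094 for CFB, with capitals for matches to any of 6 motifs named below.
C2: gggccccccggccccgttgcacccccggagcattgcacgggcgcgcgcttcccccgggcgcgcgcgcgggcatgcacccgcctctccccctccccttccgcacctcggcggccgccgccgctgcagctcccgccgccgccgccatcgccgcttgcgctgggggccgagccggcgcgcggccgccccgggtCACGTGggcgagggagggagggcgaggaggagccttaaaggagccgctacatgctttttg
CFB: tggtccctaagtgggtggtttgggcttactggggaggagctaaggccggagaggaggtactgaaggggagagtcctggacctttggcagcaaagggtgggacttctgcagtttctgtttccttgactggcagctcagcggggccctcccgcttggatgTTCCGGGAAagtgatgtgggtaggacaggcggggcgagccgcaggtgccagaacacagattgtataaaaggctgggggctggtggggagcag
The capitals mark an E-box in C2 and a STAT motif in CFB, and neither window held any of the other motifs. The window of a further RefSeq start of C2, at chr6:31900749-31900998, is not shown and also held an E-box.

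C1R and C1S, the serine proteases of the C1 complex, sit together on chromosome 12 and fell by similar amounts. C1R had 31.0 ± 2.71 CPM in the control group against 25.6 ± 0.498 CPM in the knockdown group (SD, n = 3; log2 fold change -0.28, SE 0.073), and C1S had 85.8 ± 3.04 and 72.5 ± 3.35 CPM (SD, n = 3; log2 fold change -0.24, SE 0.045). The row of C1R overlaps that of C1RL on the same strand, a gene that fell with the same log2 fold change of -0.28, and the call for C1R was lost without control sample 1 or knockdown sample 1 or 2 (adjusted p up to 0.075 by edgeR's quasi-likelihood test), and also with library size alone and with limma on both FPKM scales. C1S overlaps LPCAT3 on the opposite strand, whose log2 fold change was -0.17 and did not pass. Of the lectin pathway proteases, MASP2 had 2.01 ± 0.179 and 1.30 ± 0.225 CPM (SD, n = 3; log2 fold change -0.63, SE 0.22, adjusted p = 0.068 by edgeR's quasi-likelihood test) with no overlap between the groups, and MASP1 was low in both, with 0.348 ± 0.200 and 0.304 ± 0.0312 CPM (SD, n = 3). Summed over the 7 genes, the level was 24.8, 24.6 and 23.0 FPKM in the control samples against 18.9, 18.8 and 18.9 FPKM in the knockdown samples.

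**Figure D3:**
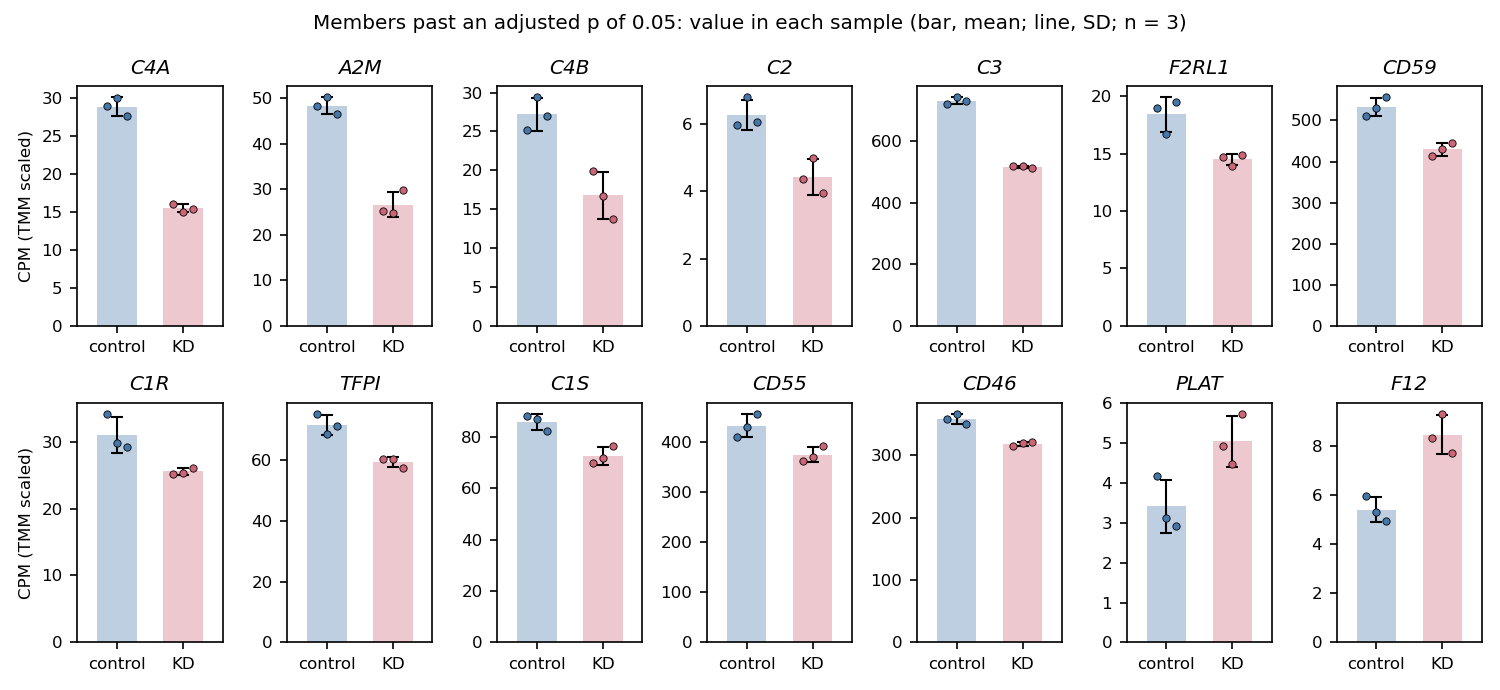
CPM (y axis, TMM scaled, from 0) in each sample for the 14 genes past an adjusted p of 0.05, with bars for the group mean, lines for the SD over 3 samples and points for samples. In each of the 14 panels all 3 knockdown (KD) samples lie on the same side of the 3 control samples, below them in 12 panels and above them for F12 and PLAT.

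Of the 7 complement regulators 3 fell, beside 12.4% of all tested genes, and these were the membrane proteins CD55, CD59 and CD46, which protect host cells. Their log2 fold changes were nearer to 0 than those of C3 and C4. CD55, which speeds the decay of C3 convertases, had 411, 430 and 456 CPM in the control samples against 363, 370 and 392 CPM in the knockdown samples. The highest knockdown sample was below the lowest control sample, and CD55 fell by 13.3% (log2 fold change -0.21, SE 0.045, adjusted p = 0.0094 by edgeR's quasi-likelihood test), a call lost without knockdown sample 2 (adjusted p = 0.052). CD59, which blocks the lytic pore, had 510, 531 and 556 CPM in the control samples against 413, 430 and 445 CPM in the knockdown samples. These groups were further apart, and CD59 fell by 19.3% (log2 fold change -0.31, SE 0.041, adjusted p = 0.00073 by edgeR's quasi-likelihood test). CD46, a cofactor for the cleavage of C3b and C4b, had 357, 366 and 350 CPM in the control samples against 314, 319 and 320 CPM in the knockdown samples. The spread within each group was narrow, and CD46 fell by 11.1% (log2 fold change -0.17, SE 0.031, adjusted p = 0.0040 by edgeR's quasi-likelihood test).

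The secreted regulators did not pass. Clusterin, the product of CLU and an extracellular chaperone that binds terminal complement complexes, had 138, 110 and 118 CPM in the control samples against 122, 127 and 127 CPM in the knockdown samples. The control samples spanned the knockdown samples, and the log2 fold change was 0.04 (SE 0.070, adjusted p = 0.75 by edgeR's quasi-likelihood test). C4BPB, the beta chain of C4b-binding protein, had 8.91 ± 0.339 and 8.02 ± 0.155 CPM (SD, n = 3; log2 fold change -0.15, SE 0.094), and VTN, the adhesive plasma protein vitronectin, had 4.52 ± 0.817 and 3.53 ± 0.457 CPM (SD, n = 3; log2 fold change -0.36, SE 0.17). CFI, the protease that inactivates C3b and C4b, varied widely, with 1.07 ± 0.797 CPM in the control group against 0.393 ± 0.428 CPM in the knockdown group (SD, n = 3). The terminal components C5 and C8G, which take part in the lytic pore, had a mean below 2 CPM in both groups and did not pass, with log2 fold changes of -0.82 (SE 0.63) and 0.86 (SE 0.47). Without 1 sample C5 ranged from -1.21 to -0.33 and C8G from 0.58 to 1.04.

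Among the clotting proteases and cofactors F12 was the gene that passed, 1 of 6 tested and so near the background of 12.4% lower and 10.4% higher. F12, the contact pathway protease factor XII (chr5:177402141-177409564, minus strand), had 5.98, 5.32 and 4.95 CPM in the control samples against 8.34, 9.32 and 7.73 CPM in the knockdown samples. Every knockdown sample was higher, and F12 rose by 56.2% (log2 fold change 0.64, SE 0.12, adjusted p = 0.0048 by edgeR's quasi-likelihood test). F12 overlaps GRK6 on the opposite strand, and GRK6, with 12345 counts over the 6 samples beside 2763 for F12, rose too, with a log2 fold change of 0.33. F3, the tissue factor that starts clotting, was the most abundant of this group by FPKM, at 3.78, and had 11.7 ± 1.18 and 13.2 ± 0.352 CPM (SD, n = 3; log2 fold change 0.17, SE 0.098). F8, the factor VIII cofactor, had 3.07 ± 0.490 and 3.59 ± 0.562 CPM (SD, n = 3; log2 fold change 0.23, SE 0.18) and overlaps FUNDC2 on the opposite strand, which fell. F2, the gene for prothrombin, had 18, 23 and 37 counts in the control samples against 0, 8 and 9 counts in the knockdown samples. The groups did not overlap, but at this depth the log2 fold change of -2.32 had an SE of 0.88 (adjusted p = 0.090 by edgeR's quasi-likelihood test). F5 and F10, the cofactor and protease of prothrombinase, had a mean below 0.5 CPM in both groups, and F7, F11 and KNG1 reached at most 10 counts in any sample.

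The receptors through which thrombin and other proteases signal to cells were well expressed. F2R, the main thrombin receptor, had 70.8 ± 3.46 CPM in the control group against 67.0 ± 2.27 CPM in the knockdown group (SD, n = 3; log2 fold change -0.08, SE 0.046), and the groups overlapped. F2RL1, which trypsin-like proteases activate, had 18.4 ± 1.48 and 14.5 ± 0.503 CPM (SD, n = 3) and fell by 21.2% (log2 fold change -0.34, SE 0.087, adjusted p = 0.018 by edgeR's quasi-likelihood test). This call was lost without control sample 1 or 3 or knockdown sample 2 (adjusted p up to 0.076 by edgeR's quasi-likelihood test).

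Of the 4 anticoagulant genes 2 fell, A2M and TFPI, and none rose, beside 12.4% and 10.4% of all tested genes. A2M, a broad protease trap of plasma (chr12:9067664-9116061, minus strand), had 48.4, 50.2 and 46.6 CPM in the control samples against 25.3, 24.7 and 29.9 CPM in the knockdown samples. The groups were far apart, and A2M fell by 44.9% (log2 fold change -0.86, SE 0.074, adjusted p = 9.8e-05 by edgeR's quasi-likelihood test). Its antisense neighbour A2M-AS1 had 1.94 ± 0.564 and 3.95 ± 0.639 CPM (SD, n = 3) and rose, with a log2 fold change of 1.03. TFPI, the inhibitor of the tissue factor complex, had 71.6 ± 3.31 and 59.4 ± 1.67 CPM (SD, n = 3) and fell by 17.0% (log2 fold change -0.27, SE 0.044, adjusted p = 0.0022 by edgeR's quasi-likelihood test). Thrombomodulin, the thrombin-binding product of THBD, had 1.22 ± 0.501 and 1.61 ± 0.171 CPM (SD, n = 3; log2 fold change 0.40, SE 0.30), and PROC, the gene of protein C, had a mean below 0.5 CPM in both groups. Neither passed.

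In the fibrinolytic system PLAT passed, 1 of 3 tested genes where 10.4% of all tested genes rose and 12.4% fell. PLAT, the tissue-type plasminogen activator gene, had 4.17, 3.13 and 2.93 CPM in the control samples against 4.93, 4.47 and 5.73 CPM in the knockdown samples. The groups were apart by a narrow margin, and PLAT rose by 47.9% (log2 fold change 0.57, SE 0.17, adjusted p = 0.041 by edgeR's quasi-likelihood test). The call held without control sample 1 but was lost without any other single sample (adjusted p up to 0.14 by edgeR's quasi-likelihood test). PLAU, the urokinase gene, had 16.8 ± 2.35 and 21.2 ± 2.88 CPM (SD, n = 3; log2 fold change 0.33, SE 0.13, adjusted p = 0.085 by edgeR's quasi-likelihood test), and its receptor gene PLAUR had 51.3 ± 1.83 and 51.6 ± 3.52 CPM (SD, n = 3; log2 fold change 0.01, SE 0.055), a value whose sign turned in 4 of 16 alternatives. PLG and CPB2, which encode plasminogen and a carboxypeptidase that slows fibrinolysis, reached at most 12 counts in any sample, and PLG had 4, 11 and 2 counts in the control samples against 0 in each knockdown sample.

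The genes FGA, FGB and FGG encode the chains of fibrinogen and form a cluster on chromosome 4. Upstream sequences are shown because their values moved together across libraries. Each is the 250 bases before a RefSeq start in GRCh38.p14, with capitals for motif matches. The windows are chr4:154590743-154590992 (minus strand) for FGA, chr4:154562761-154563010 (plus strand) for FGB and chr4:154612657-154612906 (minus strand) for FGG.
FGA: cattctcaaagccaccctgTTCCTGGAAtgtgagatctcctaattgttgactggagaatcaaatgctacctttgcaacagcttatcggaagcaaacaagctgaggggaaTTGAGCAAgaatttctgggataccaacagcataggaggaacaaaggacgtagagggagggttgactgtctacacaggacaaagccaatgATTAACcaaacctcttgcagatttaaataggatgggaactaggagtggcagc
FGB: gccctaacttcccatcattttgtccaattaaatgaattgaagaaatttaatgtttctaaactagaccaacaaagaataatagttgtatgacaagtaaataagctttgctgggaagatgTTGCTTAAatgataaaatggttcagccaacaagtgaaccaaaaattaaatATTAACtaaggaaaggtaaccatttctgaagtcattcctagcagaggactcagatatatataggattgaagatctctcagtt
FGG: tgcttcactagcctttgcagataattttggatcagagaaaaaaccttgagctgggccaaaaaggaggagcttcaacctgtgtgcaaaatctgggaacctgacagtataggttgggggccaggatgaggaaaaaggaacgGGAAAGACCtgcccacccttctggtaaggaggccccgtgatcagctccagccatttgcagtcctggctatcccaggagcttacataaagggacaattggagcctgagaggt
The capitals mark, from the left, a STAT motif, a CEBP motif and a single arm of an HNF1 site in FGA, a CEBP motif and such an arm in FGB, and an NF-kB motif in FGG. The overlapping window of a further RefSeq start of FGB, at chr4:154562730-154562979, is not shown and held the same CEBP motif and arm.

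FGA had 1.28, 2.42 and 2.87 CPM in the control samples against 2.50, 1.58 and 0.243 CPM in the knockdown samples. FGB had 0.452, 1.84 and 2.48 CPM in the control samples against 1.55, 1.57 and 0.200 CPM in the knockdown samples. FGG had 0.372, 1.24 and 1.29 CPM in the control samples against 0.656, 0.432 and 0 CPM in the knockdown samples. For each chain the lowest library was knockdown sample 3 and the next lowest control sample 1, so that the groups overlapped. For FGA and FGB the SD within each group was larger than the difference between the group means. The log2 fold changes were -0.60 (SE 0.61) for FGA, -0.52 (SE 0.70) for FGB and -1.41 (SE 0.92) for FGG, and none passed (adjusted p = 0.54, 0.66 and 0.32 by edgeR's quasi-likelihood test). Without 1 sample they ranged from -1.265 to -0.10 for FGA, -0.97 to -0.027 for FGB and -2.16 to -0.83 for FGG. Of the 37 tested genes of the list, only these 3 had this pair of lowest libraries. Of 8 hepatocyte markers outside the list it was shared by 4, ALB, TF, AFP and TTR, and not by APOA1, APOB, APOH and AHSG. ALB had 3.05, 14.1 and 14.4 CPM in the control samples against 8.37, 9.47 and 1.97 CPM in the knockdown samples. Among all tested genes, control sample 1 and knockdown sample 3 were the lowest pair for 3.73%. With both of these libraries left out, a setting chosen after seeing the data, 10 of the tested genes of the list were lower and 1 higher, and the median log2 fold change of the 37 was -0.26. The calls of C1R, C2, F2RL1 and PLAT were then lost (adjusted p = 0.085, 0.098, 0.085 and 0.0504), and CFI was gained among the lower genes (log2 fold change -3.20, adjusted p = 0.016, all by edgeR's quasi-likelihood test). ALB and TF, outside the list, also passed as lower in that setting, with log2 fold changes of -0.68 and -0.85.

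**Figure D4:**
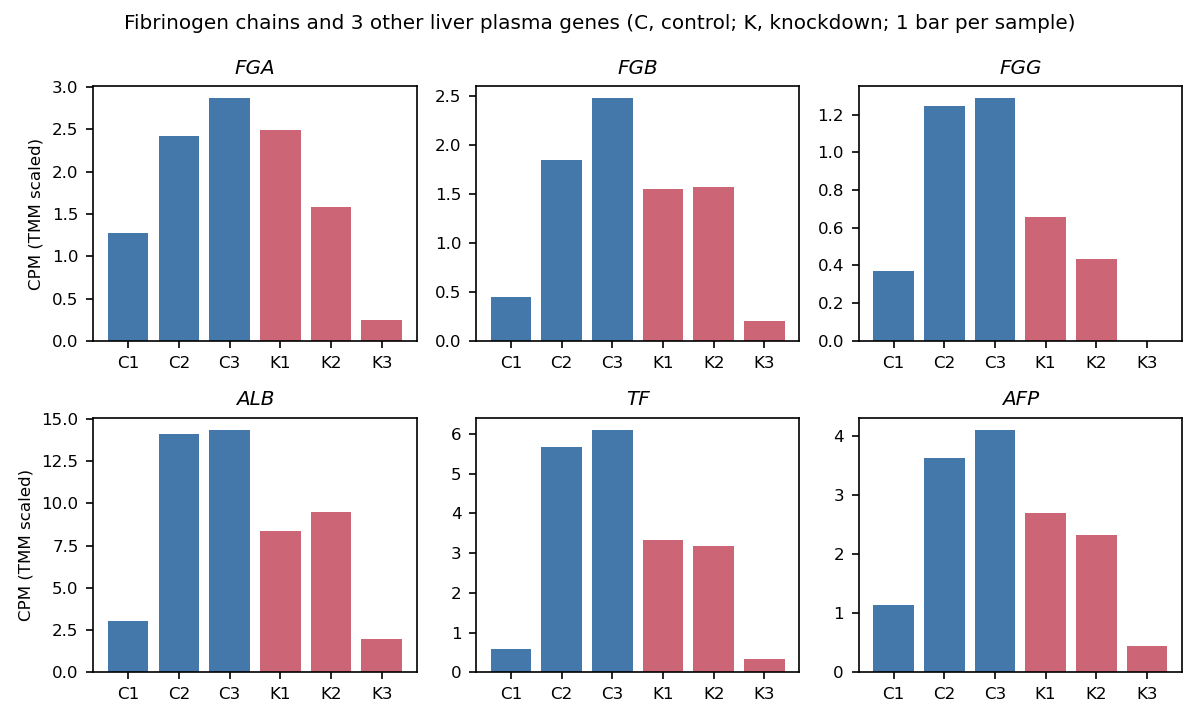
CPM (y axis, TMM scaled, from 0) of the fibrinogen genes FGA, FGB and FGG and of ALB, TF and AFP in each of the 6 samples, 1 bar per sample, with control samples (C1 to C3) in blue and ZNF706 knockdown samples (K1 to K3) in red. In all 6 panels K3 is the lowest bar and C1 the next lowest.

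The motif search covered 250 bases before each start on both strands. Of the 45 listed genes, 35 had a promoter in the RefSeq table, which holds 35116 promoters in all. C3, C4A, C4B, A2M, C1S and PLAT, which passed, had none there and were not searched, nor were CLU, F2R, THBD and C8G. The 35 include C6, C9 and KLKB1, which had no row of counts. The shares below therefore leave out several of the genes that fell. GTTAAT, a single arm of the palindromic HNF1 site, was present for 25.7% of the 35 genes and 7.5% of the 27305 gene symbols in the table, and TTGCNNAA, a CEBP motif, for 34.3% and 11%. TTCNNNGAA, a STAT motif, was present for 28.6% of the genes and 8.09% of the symbols. GGNNTTTCC, an NF-kB motif, was found for 11.4% and 6.69%, CAAAGTCC, an HNF4 motif, for 2.86% and 1.26%, and CACGTG, the E-box, for 5.71% and 7.73%. On both sides a gene with several starts counted once if any window matched, and N stands for any base. The HNF1 arm, CEBP or STAT letters lay before genes that fell, such as C1R and CD59, and before genes that did not pass, such as FGA, VTN and PLAUR.

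A further 53 genes of both cascades outside the list were followed in the same fit, of which 34 had a row and 21 were tested. Of these, 5 fell and 5 rose, beside 12.4% and 10.4% of all tested genes, and the median log2 fold change was -0.10. The genes that fell included C4BPA, the alpha chain of C4b-binding protein, with 5.14 ± 0.391 CPM in the control group against 2.33 ± 0.493 CPM in the knockdown group (SD, n = 3; log2 fold change -1.14, SE 0.18), beside C1RL, TFPI2, MCFD2 and LMAN1. The calls of C1RL, TFPI2 and LMAN1 were lost in 5, 4 and 4 of the 6 fits without 1 sample, and that of TFPI2 came from groups that overlapped. MCFD2 and LMAN1 form the receptor that carries factors V and VIII out of the endoplasmic reticulum, with log2 fold changes of -0.20 (SE 0.031) and -0.12 (SE 0.034). The genes that rose were 4 receptors and THBS1. BDKRB2, a bradykinin receptor, went from 0.546 ± 0.0955 to 1.38 ± 0.0876 CPM (SD, n = 3; log2 fold change 1.33, SE 0.28; not called with limma on either FPKM scale), C5AR2, a receptor for C5a, from 11.5 ± 0.455 to 20.1 ± 0.186 CPM (SD, n = 3; log2 fold change 0.80, SE 0.077), and PROCR, the receptor of protein C, from 9.30 ± 0.343 to 15.8 ± 1.20 CPM (SD, n = 3; log2 fold change 0.76, SE 0.092). F2RL3, a thrombin receptor, and THBS1, the matrix protein thrombospondin, rose by 0.67 and 0.50 on the log2 scale. C5AR1, the main C5a receptor, did not pass, at 18.1 ± 1.20 and 17.9 ± 0.884 CPM (SD, n = 3).

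Among 23 genes for liver and inflammatory regulators, 19 were tested, and 7 fell and none rose (adjusted p below 0.05, edgeR's quasi-likelihood test), beside 12.4% and 10.4% of all tested genes, and the median log2 fold change was -0.20. SOCS3, a feedback inhibitor of cytokine receptors, had 94.3 ± 4.22 CPM in the control group against 66.1 ± 1.25 CPM in the knockdown group (SD, n = 3; log2 fold change -0.51, SE 0.041), and IL6ST, the shared signalling receptor gp130, had 306 ± 8.62 and 222 ± 13.2 CPM (SD, n = 3; log2 fold change -0.46, SE 0.046). OSMR, IL6R, STAT3, CEBPD and NFKB1 fell too, with log2 fold changes of -0.34, -0.25, -0.20, -0.29 and -0.23, and the call of NFKB1 was lost without knockdown sample 2 or 3 (adjusted p up to 0.074 by edgeR's quasi-likelihood test). With library size alone NFKB1 was lost as well, and with limma on both FPKM scales or without both libraries low in fibrinogen NFKB1 and IL6R were lost. CEBPB and RELA did not pass, nor did the liver factors FOXA1 and CEBPA, and HNF4A was low, with 1.16 ± 0.757 and 0.524 ± 0.151 CPM (SD, n = 3).

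Of 18 acute phase and plasma genes outside the list, 11 were tested, 3 fell and none rose, beside 12.4% and 10.4% of all tested genes. The median log2 fold change was -0.76, the value of SAA4, which had few counts, and -0.85 over the 7 genes whose mean count reached 50, the value of TF, which did not pass and ranged from -1.37 to -0.34 without 1 sample. ALB, TF and TTR are also among the hepatocyte markers. SAA1, a serum amyloid A gene, had 59.3 ± 1.79 CPM in the control group against 32.0 ± 3.06 CPM in the knockdown group (SD, n = 3; log2 fold change -0.89, SE 0.067), and its close copy SAA2, with which reads could be shared, had 7.86 ± 0.408 and 5.04 ± 1.23 CPM (SD, n = 3; log2 fold change -0.64, SE 0.17). The call of SAA2 was lost without a filter, and without control sample 2 or 3 or knockdown sample 1 or 2. FGL1, a fibrinogen-like protein of liver, had 15.8 ± 1.15 and 7.47 ± 0.291 CPM (SD, n = 3; log2 fold change -1.08, SE 0.094). HP and HAMP, which encode haptoglobin and hepcidin, were too low to be tested.

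**Figure D5:**
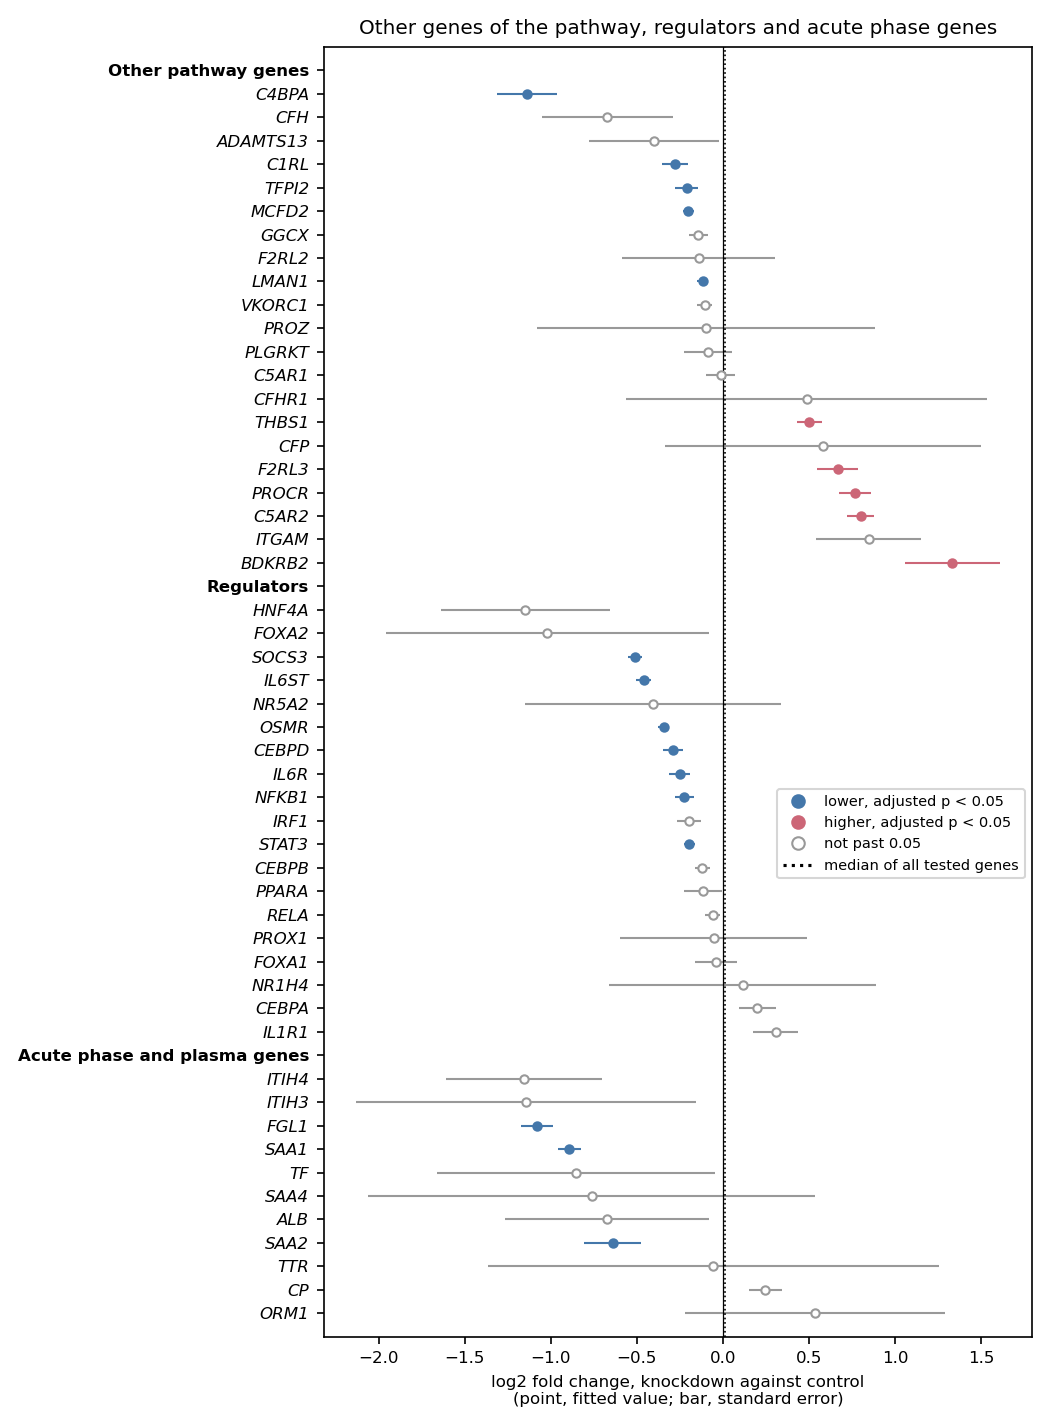
Log2 fold change (x axis, knockdown against control) with its standard error for the tested genes outside the list, namely 21 further pathway genes, 19 regulators and 11 acute phase and plasma genes. Filled points passed an adjusted p of 0.05, 5 lower and 5 higher in the first group, 7 lower in the second and 3 lower in the third.

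Markers of cell types were read in the same samples. The epithelial keratin genes KRT8 and KRT18 were high, with mean levels of 196 and 266 FPKM. The summed FPKM of 4 epithelial markers was 463.6 ± 14.1 in the control group against 461.7 ± 9.61 in the knockdown group (SD, n = 3). Nearly all of this sum came from the keratin genes, whose log2 fold changes were 0.01 and -0.10. CDH1 and EPCAM were at 0.59 (SE 0.21) and 0.75 (SE 0.79), and none of the 4 passed. Hepatocyte markers were low for a liver label. ALB, the most abundant of them, had a mean of 2.17 FPKM, and the sum of 8 markers was 3.16, 7.53 and 8.73 FPKM in the control samples against 3.35, 3.55 and 2.50 FPKM in the knockdown samples. All 8 hepatocyte markers had a log2 fold change below 0, and APOB and APOH fell, with log2 fold changes of -0.98 and -2.32, beside 48.7% and 12.4% of all tested genes. APOH had few counts, 24, 44 and 54 in the control samples against 9, 4 and 14 in the knockdown samples. TTR was at -0.06 (SE 1.31). Neither APOB nor APOH was followed through the alternatives. ALB, TF, AFP and TTR, which shared the lowest libraries of the fibrinogen genes, did not pass. In bulk samples of the LM3 line, fewer cells with a given marker and less of its RNA per cell cannot be told apart.

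Of 8 macrophage markers, 4 had a row, and CD68 and CSF1R rose, by 0.64 and 0.49 on the log2 scale. The summed FPKM of the 4 was 14.6, 14.4 and 14.1 in the control samples against 22.2, 23.2 and 22.3 in the knockdown samples, mostly CD68. The defining marker PTPRC had 8, 8 and 0 counts in the control samples against 0 in each knockdown sample, and MARCO had 0 in all 6. Of the endothelial markers CDH5 fell, with a log2 fold change of -0.70. PECAM1 and STAB2, which were also tested, were at 0.15 and 0.20 and did not pass. The summed FPKM of the 4 with a row was 1.93 ± 0.141 in the control group against 1.59 ± 0.142 in the knockdown group (SD, n = 3). CDH5 made up 57.9% of it over the 6 samples. Of the stellate and fibroblast markers COL1A1 and PDGFRB rose by 0.20 and 0.68 on the log2 scale. DCN and ACTA2, which were also tested, were at -0.04 and -0.09 and did not pass. COL1A2, which was not tested, had 117, 8 and 0 counts in the control samples against 0, 0 and 119 in the knockdown samples. Control sample 1 and knockdown sample 3, the libraries low in fibrinogen, were thus its highest. The summed FPKM of all 5 was 7.96 ± 0.150 in the control group against 9.72 ± 0.190 in the knockdown group (SD, n = 3). COL1A1 made up 87.4% of it over the 6 samples. No marker of red cells or platelets passed. The part of these markers in the changes of complement and coagulation genes was not tested.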

How the data were processed

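Total RNA of 6 LM3 samples was sequenced on an Illumina NovaSeq system. Per the methods of the study and the submitters' processing notes, reads were trimmed with cutadapt 1.9, checked with FastQC and mapped to GRCh38 with HISAT2. The authors deposited 1 table holding, for every sample, a raw count of each gene and an FPKM value, which they had divided by gene length and library size. The counting program, its use of strand and the annotation release are not given in the sources used here. Among the deposited values, a count of 4 occurred 6594 times, more often than 3 (4454) or 5 (2476), so very low counts may not be single reads.

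The counts of the whole table were filtered (filterByExpr), scaled (TMM) and fitted in edgeR 4.0.16 under R 4.3.3 with its quasi-likelihood test, group as the only term and Benjamini-Hochberg adjustment over 18390 genes. The steps were tested on simulated data. CPM values use the TMM factors, and the SE was taken from the fold change and its F statistic, as |log2 fold change| over the root of F. Samples held 62684076 to 69057423 counts, and 8 tested genes of the list had a mean count below 50, which limits their precision.

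The members of the list, the further lists and the alternatives were chosen with earlier results of these data known. Values in every sample are given for genes of the list past an adjusted p of 0.05 whose log2 fold change was 0.5 or more in either direction, for the 5 highest by FPKM, and for the C4 and fibrinogen genes. F2 and PLG, shown by counts, and ALB were added after their values were seen. Alternatives were DESeq2 1.42.0, DESeq2's size factors, library size alone, no filter, a filter at a mean count of 50, limma 3.58.1 on log2(FPKM + 0.1) and log2(FPKM + 1) where the mean FPKM reached 0.1, C4A and C4B summed, the replicate number as a block, the study's thresholds on the edgeR p and each sample left out. Over the 14132 genes whose mean count reached 50, chi-square per gene was 12.8 to 22.2 within groups, so no samples were duplicates. Promoter sequences are from RefSeq (GRCh38.p14). Genes were matched by symbol. One gene of the regulator list is not reported here and is in none of its counts.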

Additional observations from a re-analysis of the deposited data

How the results depend on the processing

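The number of listed genes that fell stayed between 9 and 12 under every alternative run (12 as reported, 9 without knockdown sample 2), and ZNF706 fell in each. Of the 2 genes that rose, F12 was called in all 6 fits without 1 sample, while PLAT was lost without a filter, under limma on log2(FPKM + 0.1) and on log2(FPKM + 1), and without both libraries low in fibrinogen, each of which left 1 gene higher, and leaving out 1 sample gave 1 to 2. The median log2 fold change of the list was -0.27 as reported, -0.22 with library size alone, -0.32 with DESeq2 and -0.33 without a filter, which both add the 5 untested genes, and -0.204 and -0.130 with limma on the 2 FPKM scales, which covers 32. Over the same 37 genes it was -0.26 with DESeq2 and -0.27 without a filter, and the 32 genes had -0.26 as reported. Scaling by library size alone moved the median of all tested genes from 0.01 to 0.06. The number of further pathway genes that fell was 5 as reported, 2 with library size alone, 2 without a filter, 2 with each limma scale, 2 without both low libraries, 1 by the study's thresholds on the edgeR fit and 2 to 4 without 1 sample, and the cause was not tested. Direction turned only for genes that did not pass. CFB was at 0.00794 with library size alone and 0.00286 and 0.00266 with limma, and CFD at 0.0347, 0.0346 and 0.0289. Without 1 sample CFD ranged from -0.14 to 0.064, CLU from -0.0317 to 0.13, MASP1 from -0.59 to 0.21, F10 from -0.70 to 0.31 and PLAUR from -0.0461 to 0.0505. Without both low libraries C5 was at 0.0845, F10 at 0.39 and PLAUR at -0.0654. Same-numbered samples had correlations of deviations of 0.075, -0.0088 and 0.080, beside -0.097 to 0.025 for the other pairs between groups. With so few samples, these values do not settle whether the replicate numbers pair the samples. With the replicate number as a block, 12 listed genes fell, 2 rose and the median was -0.27. Leaving out 1 sample also ended the call for CD55 without knockdown sample 2 (adjusted p = 0.052 by edgeR's quasi-likelihood test) and made one for CFI without knockdown sample 3 (log2 fold change -2.86). C1R was lost with library size alone, C2 without a filter and both with limma on either FPKM scale. DESeq2 added PLAU among the genes that rose.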
